A study of Homo sapiens with 13 samples.

Results

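The undifferentiated state of GFP::SMAD4 RUES2 cells was measured with both library preparations of the study, and 3 of its 13 libraries make up this pluripotent baseline. They are the 2 libraries at 0 h of the time series, made from total RNA after ribosomal RNA depletion, and the single untreated library of the dose response, made from polyA-selected RNA. RUES2 is a human embryonic stem cell line, and in all 3 libraries, as in the rest of the series, the cells carried a fusion of GFP with SMAD4 and grew in mTeSR1, a defined maintenance medium, with a ROCK inhibitor. The other libraries received 100 ng/mL BMP4 with 5 µM IWP2, an inhibitor of Wnt secretion, for 4 to 42 h in the time series, or for 5 h with 0 to 300 nM of the BMP receptor inhibitor LDN-193189 in the dose response. The labels of the 0 h libraries name the BMP4 treatment at time 0 hr. RNA came from the RNAqueous micro kit in the time series and the RNeasy micro kit in the dose response, and the untreated cells were collected at 5 h, so the preparation, the extraction kit, the experiment and the time in culture cannot be told apart here. The labels do not say whether the 2 libraries at 0 h came from separate cultures. The p-values for genes at baseline rest only on the spread between these libraries, pooled over genes.

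Most messenger RNAs and many long noncoding RNAs end in a tail of adenosines, and polyA selection keeps RNA by that tail. Ribosomal RNA depletion instead removes ribosomal RNA with complementary probes and keeps what is left, with or without a tail. RNAs known to lack a long tail include the replication-dependent histone mRNAs, which are made in S phase and end in a stem-loop, and the structured RNAs of the nucleus and cytoplasm, such as 7SL of the signal recognition particle, 7SK, which holds back a transcription elongation factor, and the RNA subunits of RNase P and RNase MRP. Cells in the pluripotent state are known for high levels of the transcription factors POU5F1, SOX2 and NANOG and of the RNA-binding protein LIN28A.

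The 3′ ends of histone transcripts in the annotation show this feature, and 5 are given here, from genes with nearly no and with the most polyA reads. Each window of 30 bases is from GENCODE 44 on GRCh38, 5′ to 3′ on the transcript strand, with the 16-base stem-loop in capitals.
H1-5: agccccaaaGGCTCTTTTCAGAGCCaccca
H3C14: tatccaaaaGGCTCTTTTCAGAGCCaccca
H4C6: gctcacccataaaaGGCCCTTTTCAGGGCC
H2BC12: aaccccaaaGGCTCTTTTAAGAGCCactta
H2AC6: aacccaaaGGCTCTTTTCAGAGCCccccta
The windows of H1-5 (chr6:27866792-27866821), H4C6 (chr6:26240764-26240793), H2BC12 (chr6:27146361-27146390) and H2AC6 (chr6:26124661-26124690) lie in the histone clusters of chromosome 6, and that of H3C14 (chr1:149840687-149840716) on chromosome 1, each at the end of a transcript of 1 exon. H1-5, H3C14 and H2BC12 are on the minus strand and H4C6 and H2AC6 on the plus strand. An element of this form was searched in the last 100 bases of each transcript on its own strand, as GGNNNNTTNNNNNNNN with 6 pairs around a loop of 4 bases and at most 1 mismatch. It was found in 64 of 68 replication-dependent histone genes (94.1%) and in 34 of 19886 other protein-coding genes (0.171%). The polyA signal AATAAA or ATTAAA was found in the last 50 bases of 3 of the 68 histone transcripts (4.41%) and of 77.8% of the other protein-coding transcripts. The histone transcripts with a signal were those of H2BC9, H4C11 and H2BC21, and the stem-loop of H2BC21 stood 1729 bases before the end of its transcript.

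For contrast, the ends of 2 tailed mRNAs and of H2BC21 are given with the polyA signal in capitals. H2AZ1 (chr4:99948088-99948117, minus strand) encodes a replacement histone made throughout the cell cycle, POU5F1 (chr6:31164351-31164380, minus strand) the pluripotency factor, and the H2BC21 window is at chr1:149884459-149884488 on the minus strand.
H2AZ1: ggataagttcAATAAAggtcatatcccaaa
POU5F1: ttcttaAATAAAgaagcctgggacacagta
H2BC21: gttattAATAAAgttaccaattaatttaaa
The ends of 4 noncoding RNAs that carried the largest counts of their classes hold no such signal, and no letters are in capitals. They are RN7SK (chr6:52995919-52995948, plus strand), RPPH1 (chr14:20343075-20343104, minus strand), RN7SL2 (chr14:49862550-49862579, minus strand) and SCARNA2 (chr1:109100583-109100612, plus strand).
RN7SK: gaggcgctgcatgtggcagtctgcctttct
RPPH1: ataacccaattcagactactctcctccgcc
RN7SL2: cctgagcaacatagcgagaccccgtctctt
SCARNA2: ccactgattatcgaggcgattctgatctgg

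The libraries at 0 h held 37957385 (replicate 1) and 71333471 counts (replicate 2), and the untreated library held 15600931. Levels are given as CPM, the count scaled to a common library total, so that 3 counts, the floor used here, stood at 0.0790, 0.0421 and 0.192 CPM in the same order. This floor and the intervals given cover counting error only. The 2 libraries at 0 h differed from each other in composition. Replicate 2 held 3.31 times the 7SL share of replicate 1 and 3.53 times its share of RNase P and RNase MRP RNA, and 0.564 times its share of mitochondrial mRNA. Of 15178 genes tested, 1.5% differed between the 2 by a log2 difference in CPM of at least 1. The SD over genes of that difference was 0.42, against 0.94 for the difference between the mean at 0 h and the untreated library.

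The cells of all 3 libraries carried the transcripts expected of their label. POU5F1 stood at 1003 and 1721 CPM at 0 h and at 1473 CPM in the untreated library, SOX2 at 389 and 375 against 348 CPM, and NANOG at 146 and 116 against 129 CPM. The untreated value lay between those at 0 h for POU5F1 and NANOG and just below both for SOX2. LIN28A, which blocks the maturation of let-7 microRNAs, was the most abundant of the 28 pluripotency genes by CPM at 0 h, at 3017 and 2966 CPM, and stood at 1795 CPM when untreated. DNMT3B, a de novo DNA methyltransferase, stood at 2009, 1999 and 1939 CPM. In a list of germ layer and amnion genes, several were near the floor in all 3 libraries. TBXT of the primitive streak was at 0.294 CPM or below and SOX17 of the endoderm at 0.0790 CPM or below. The amnion gene TFAP2A was at 0.158 CPM or below. Of the 22 genes in that list, 12 stayed under 0.5 CPM in each of the 3, and 6 reached a mean of 1 CPM over the 2 preparations. TUBB3, a tubulin gene used as a neuronal marker, stood highest at 250, 323 and 193 CPM. KRT7, listed with the amnion genes, followed at 9.93, 14.3 and 13.8 CPM. Of 11 markers of fibroblasts, blood and endothelium, 7 stayed under 0.5 CPM. HBB had 0 counts in each of the 3 libraries, and so had DCN. The collagen gene COL1A1 (181, 154 and 118 CPM) and the receptor gene KDR (68.2, 60.5 and 47.5 CPM) were expressed in all 3. In bulk libraries, fewer cells that express a gene and less RNA per cell cannot be told apart.

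**Figure D1:**
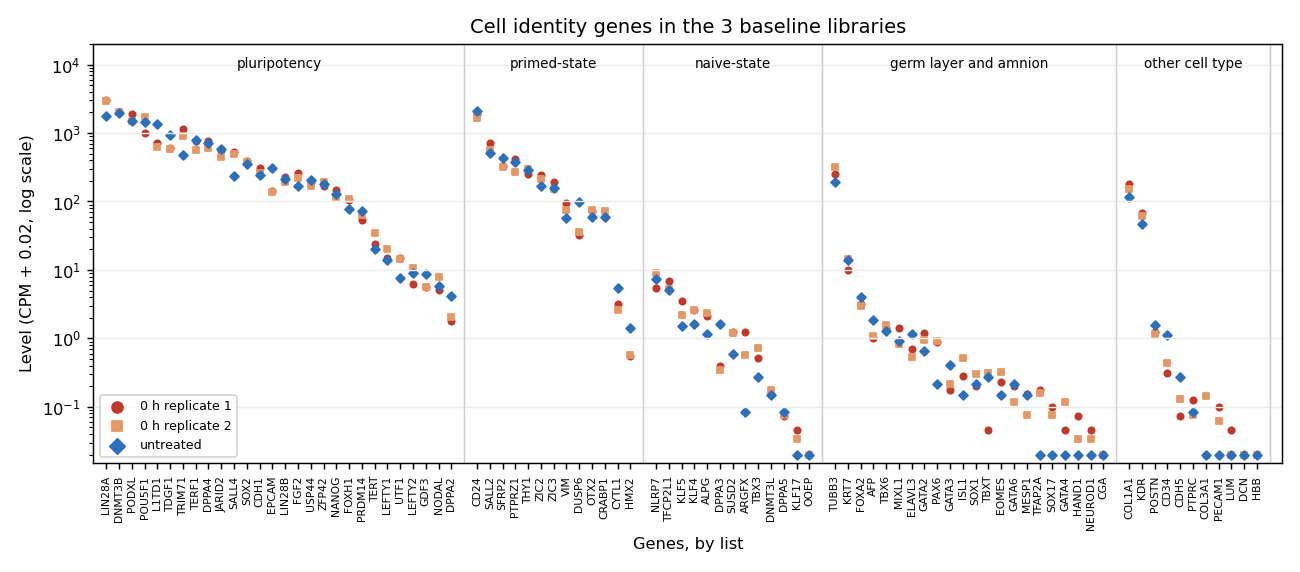
Levels of genes of 5 lists in the 3 baseline libraries, as CPM + 0.02 on a log scale, with genes on the horizontal axis ordered by mean level within each list. Circles and squares are the libraries at 0 h, diamonds the untreated library. Most pluripotency genes lie above 10 CPM with the 3 symbols close together, and most germ layer, amnion and other cell type genes lie near or under 1 CPM.

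The naive and primed states of pluripotency were described by a list for each. The primed genes SFRP2, a secreted Wnt modulator, and ZIC2, a zinc finger transcription factor, stood at 327, 314 and 431 CPM and at 247, 215 and 167 CPM. The naive genes KLF17, DPPA5 and OOEP stood at or below 0.0641 CPM in all 3 libraries. They were among 4 of the 13 listed naive genes that stayed under 0.5 CPM in each library, and the others reached that level in at least 1. KLF4 was at 2.56, 2.61 and 1.60 CPM. The list of naive genes summed to 24.1, 24.4 and 19.4 CPM, and the list of primed genes to 4341, 3760 and 4319 CPM. These sums compare levels between libraries and not between genes of different length.

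Genes were then compared between the preparations with edgeR's quasi-likelihood test, and p-values were adjusted by the Benjamini-Hochberg method over the 15178 genes tested (edgeR adjusted p). At an edgeR adjusted p under 0.05, 926 genes were higher at 0 h (6.1%) and 578 were lower (3.81%). The spread came from the 2 libraries at 0 h alone, so the untreated library was assumed to vary as they did. This left 1 residual degree of freedom, and edgeR in most genes used a spread pooled over genes. A gene's own difference between the libraries at 0 h thus hardly entered its p-value, and very small p-values do not measure its replicate spread. A model over 5 libraries added the 4 h library and the dose response library with BMP4 and no LDN, with BMP4 as a covariate, and called 2016 genes higher (13.3%) and 1786 lower (11.8%) after ribosomal RNA depletion. Of the calls at baseline, 875 and 543 were also made in that model. The 3 baseline libraries enter both fits, so this overlap is partly built in. By size alone, 1236 genes were higher by a log2 difference in CPM of at least 1 at 0 h (8.14%) and 418 were lower by as much (2.75%).

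**Figure D2:**
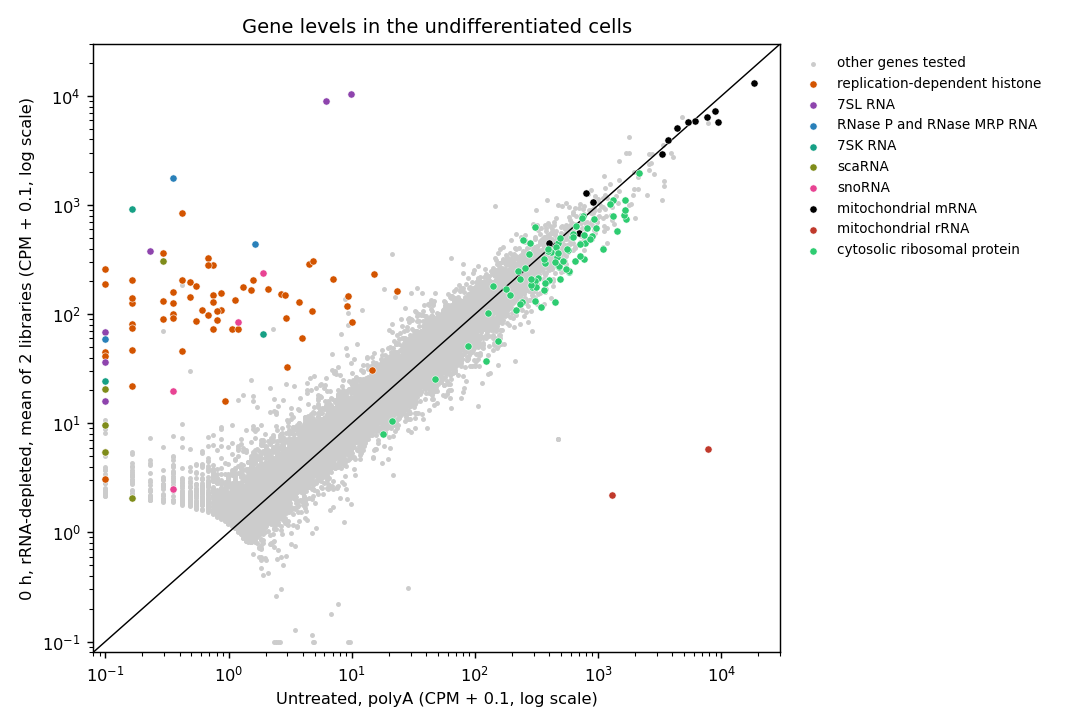
Each point is 1 of the 15178 genes tested, with its level in the untreated polyA library on the horizontal axis and its mean over the 2 libraries at 0 h on the vertical axis, both as CPM + 0.1 on log scales, and the line marks equal levels. Histone genes and the structured RNA classes lie far above the line, the 2 mitochondrial rRNAs far below it, and ribosomal protein genes mostly just below it.

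A second pair of libraries, from the same 2 experiments, shared no sample with the baseline. The 4 h library (ribosomal RNA depleted) was set against the library with BMP4, no LDN and 5 h (polyA), with 1 library a side and no test. Of the 926 genes called higher at baseline, 914 (98.7%) were also higher in that pair, against 54.6% of all genes tested. Of the 578 called lower, 555 (96.0%) were lower in it, against 45.4% of all genes tested. Across genes, the log2 differences in CPM of the baseline and of the pair had a Pearson correlation of 0.85 over all 15178 genes. It was 0.74 over the 13201 protein-coding genes outside the histone list. These are descriptions, since genes are not independent replicates and all 4 groups share the cell line. The pair also differs by the same 2 preparations, extraction kits and experiments as the baseline, so it cannot tell these apart either.

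The replication-dependent histone genes were higher at 0 h as a group. Their 68 genes together took 0.794% and 1.06% of counts at 0 h and 0.0143% in the untreated library, a ratio of 64.8 for a mean at 0 h of 0.927% ± 0.187 (SD, n = 2). All 63 that passed the filter on low levels were higher at 0 h by edgeR (6.1% of all genes tested were), and a gene could pass that filter through the 0 h libraries alone. In 63 of these 63 genes both libraries at 0 h lay above the untreated one. The median log2 fold change was 7.60, or 7.26 when genes with fewer than 3 counts in the untreated library were set at that floor, against 0.03 over all genes tested. In the pair at 4 h and 5 h the same 63 genes were all higher after ribosomal RNA depletion, with a median log2 difference in CPM of 7.21.

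Linker histone genes had the widest gap among the families. The 5 H1 genes summed to 1362 and 1879 CPM at 0 h and to 7.88 CPM in the untreated library, a ratio of 206. H1-5 was the most abundant histone gene by CPM at 0 h, with 626 and 1073 CPM against 0.320 CPM, or 5 counts, in the untreated library. Its log2 fold change was 11.31 ± 0.67 (SE, edgeR adjusted p = 1.41e-59). Each SE given for a log2 fold change was worked back from the test. It is the absolute log2 fold change over the square root of edgeR's F statistic. H1-4 stood at 340 and 381 CPM against 0.192 CPM. The 13 H3 genes had a ratio of 166 and the 15 H4 genes one of 58.1. The ratio was 50.7 for the 18 H2B genes and 40.2 for the 17 H2A genes. The core histones H2A, H2B, H3 and H4 form the nucleosome, and H1 binds the DNA that links nucleosomes.

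At the level of single genes, H3C14 was at 180 and 339 CPM at 0 h and had no count in the untreated library, so it was at least 1350-fold higher against the floor of 3 counts. H3C4 stood at 42.0 and 46.9 CPM at 0 h and also had no count untreated, at least 231-fold higher. H4C6 had 185 and 226 CPM and a single count untreated, a ratio of 3203 with a counting interval of 575 to 126514. Of the 63 genes, 6 had no count in the untreated library and 41 lay under 1 CPM there. H2AC18, H2AC19 and H4C12 belong to sets of near-identical copies, among which the counting by the authors could split reads: H2AC19 had no count untreated while H2AC18 stood at 4.74 CPM, and in the library with BMP4 and no LDN the order was turned, with 5.08 CPM for H2AC19 and no count for H2AC18. Values for such copies are uncertain one by one. H3C15, near H3C14 on chromosome 1, stood at 194 and 465 CPM at 0 h and at 0.577 CPM, or 9 counts, untreated. Whether reads were split between H3C14 and H3C15 was not examined, so the bound for H3C14 alone is uncertain.

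Some histone genes had reads in the polyA library well above the floor. H2AC6 stood at 155 and 169 CPM at 0 h and at 23.4 CPM untreated, the highest untreated level of the list. H2BC12 followed with 210 and 255 against 15.2 CPM, and H2AW, with 19.7 and 42.1 against 14.5 CPM, had the smallest log2 fold change, 1.04 (edgeR adjusted p = 0.0267, and 0.184 by DESeq2's Wald test). In total 7 genes reached 5 CPM untreated: H2AC6, H2BC12, H2AW, H2BC5, H4C14, H4C15 and H1-2. Their untreated levels recurred in the library with BMP4 and no LDN, where H2AC6 was at 24.1, H2BC12 at 9.85, H2AW at 13.5 and H1-2 at 7.27 CPM. None of the 7 had a polyA signal in the last 50 bases of the 1 transcript searched per gene, the Ensembl canonical one, which in H2AC6 and H2BC12 ends just after the stem-loop shown above. The annotated spans of H2AC6, H2BC5, H2AW, H4C14 and H4C15 run past that transcript, and their longer transcripts were not examined. The 3 histone genes with an annotated signal stood at 2.76 (H2BC9), 3.65 (H2BC21) and 3.85 CPM (H4C11) untreated. In the library with BMP4 and no LDN they stood at 2.99, 3.62 and 12.2 CPM in the same order, so H4C11 did not keep its untreated level. By stem-loop letters, 39 genes shared the form of H1-5, 10 that of H4C6 and 8 that of H2BC12, with median untreated levels of 0.449, 0.353 and 0.929 CPM. A form found in 4 H4 genes, H4C9, H4C12, H4C14 and H4C15, had a median of 6.73 CPM, and its members ranged from 0.513 to 9.23 CPM.

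**Figure D3:**
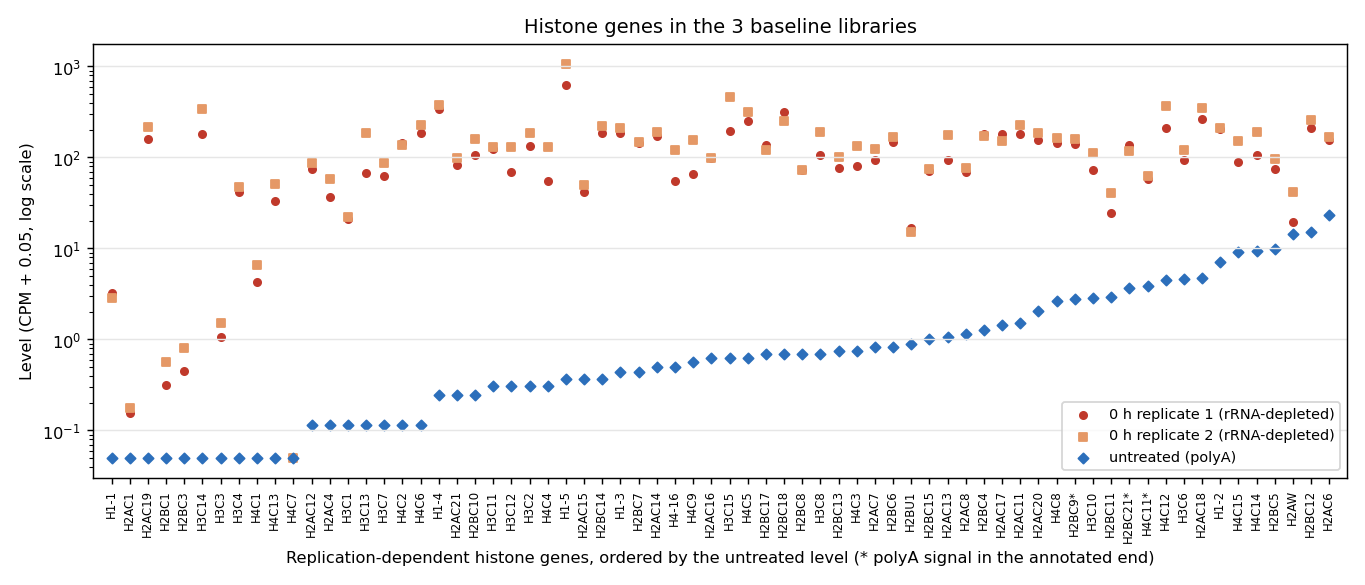
Levels of the 68 replication-dependent histone genes in the 3 baseline libraries, as CPM + 0.05 on a log scale, ordered on the horizontal axis by the untreated level. Circles and squares (0 h) lie mostly near 100 CPM across the axis, while the diamonds (untreated) climb from 0 counts to 23.4 CPM at H2AC6, and an asterisk marks the 3 genes with an annotated polyA signal.

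The replacement histone genes, whose mRNAs carry polyA tails, did not share this difference. Of 10 tested, 0 were higher at 0 h (against 6.1% of all genes tested) and 2 were lower (20%, against 3.81%) by edgeR's quasi-likelihood test. H2AZ1 stood at 157 and 160 CPM at 0 h and at 371 CPM untreated (log2 fold change −1.28 ± 0.32 SE, edgeR adjusted p = 0.00181). H2AJ stood at 7.53 and 12.0 against 19.4 CPM (edgeR adjusted p = 0.0135, and 0.12 by DESeq2's Wald test). At an unadjusted p under 0.05 the list again held 0 higher and 2 lower genes, and DESeq2 called 0 and 1. H2AX, whose protein is phosphorylated at DNA breaks and whose mRNA is known in both forms, was at 269 and 433 CPM against 360 CPM, with the untreated value between those at 0 h.

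The structured RNAs differed by more than the histones. The 679 features annotated as 7SL RNA took 0.931% and 3.08% of counts at 0 h and 0.00169% in the untreated library, a ratio of 1185. Nearly all of it came from RN7SL1 and RN7SL2 on chromosome 14. RN7SL2 stood at 5140 and 15798 CPM at 0 h and at 9.74 CPM untreated, and RN7SL1 at 3905 and 14256 against 6.09 CPM. Their log2 fold changes were 10.02 ± 0.63 and 10.49 ± 0.64 (SE), with edgeR adjusted p-values of 8.66e-54 and 1.13e-56. The 2 genes and the annotated pseudogenes RN7SL471P and RN7SL4P are near-identical copies, so counts could be split among them.

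RNase P RNA matures the 5′ ends of tRNAs, and its gene RPPH1 stood at 671 and 2845 CPM at 0 h and at 0.256 CPM untreated, from 4 counts. RMRP, the RNA of RNase MRP, which acts in ribosomal RNA maturation, has 2 features in the table, only 1 of them in GENCODE 44. Together they stood at 325 and 670 CPM at 0 h and at 1.54 CPM untreated. RN7SK had 530 and 1314 CPM at 0 h and 1 count untreated, a ratio of 14383 with a counting interval of 2581 to 568095. In the library with BMP4 and no LDN it stood at 1.88 CPM, so the size of this ratio rests on a single count. TERC, the RNA template of telomerase, stood at 0.764, 2.92 and 0.128 CPM under its own name, while a second feature at its locus, named Telomerase-vert, stood at 27.0, 60.6 and 0 CPM. BCYRN1, a cytoplasmic RNA that holds a stretch of adenosines within its sequence, stood at 4.08, 3.28 and 2.37 CPM. It was the only tested member of this list of 15 features without a call. The other 6 tested features, with RMRP counted as 2, were higher at 0 h (85.7% of those tested, against 6.1% of all genes tested). Here too a gene could pass the filter on low levels through the 0 h libraries alone. Of the 15 features, 7, all of them Y RNAs and vault RNAs, had no count in any baseline library.

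Small nuclear and nucleolar RNAs were seen only in part. Of 938 snoRNA features, 12 and 13 had at least 3 counts at 0 h and 4 did when untreated, and the class took 0.0227% and 0.0475% of counts at 0 h and 0.000372% untreated. Most of these counts came from SNORD3A, the U3 snoRNA of ribosomal RNA processing, at 118 and 359 CPM at 0 h and at 1.79 CPM untreated, and from its copies SNORD3B-1 and SNORD3B-2. Small Cajal body RNAs guide the modification of spliceosomal RNAs, and SCARNA2 stood at 153 and 457 CPM at 0 h against 3 counts untreated, a ratio of 1588 with a counting interval of 543 to 7699. SCARNA10 stood at 6.80 and 34.1 CPM at 0 h and had no count untreated, at least 106-fold higher. Of the 25 scaRNA features in the list, 15 had fewer than 3 counts in each baseline library. The 23 genes of the major and minor spliceosomal RNAs summed to 0.764 and 0.813 CPM at 0 h and had no count untreated, where RNU2-2P had 11 and 25 counts at 0 h and RNU1-2 and RNU1-4 had 9 and 15 each. These RNAs, abundant in the nucleus, were thus near the floor at 0 h and not detected in the untreated library. snoRNA host genes, which are spliced and tailed, were called in both directions: 3 of 21 were higher at 0 h (14.3%, against 6.1% of all genes tested) and 2 were lower (9.52%, against 3.81%), with SNHG17 at 69.7 and 69.0 against 21.2 CPM and NCL, which encodes nucleolin, at 1273 and 1187 against 2516 CPM. The other lower gene, SNHG32, stood at 32.1 and 38.2 against 63.9 CPM. SNHG32 missed the threshold by DESeq2's Wald test, and in edgeR with library totals, with no filter or at a minimum of 10 CPM. The 5-library model called 4 higher and 5 lower, with SNHG32 among the lower. In the pair of the 4 h library and the library with BMP4 and no LDN, 17 of the 21 were lower after ribosomal RNA depletion. Their median log2 difference in CPM over all 21 was −0.42.

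Among all 14 classes, the share of counts was compared over whole experiments, since 2 libraries against 1 cannot pass an exact test. The 7 time series libraries did not overlap the 6 dose response libraries for 7SL, 7SK, RNase P and RNase MRP RNA, scaRNA, snoRNA, snRNA, histone, cytosolic ribosomal protein and mitochondrial rRNA shares. Exact permutation tests, two-sided, gave p-values adjusted over the 14 classes of 0.00204 for 8 of these classes and 0.00245 for 7SK. A remainder of unclassed features, 0.0270% to 0.0548% of counts, also did not overlap. The same classes kept apart in the 5 libraries of each experiment that the baseline does not use, with an adjusted p of 0.0111 by the exact permutation test for each, where the smallest unadjusted p the design allows is 0.00794. The treatments differ between the experiments as well as the preparations. Each preparation was used in 1 experiment, and its libraries, at different times or doses, are not replicates of it. These tests therefore say only that the 2 experiments differ. The share of long noncoding RNA overlapped, at 1.29% to 2.22% in the time series and 1.39% to 1.54% in the dose response (exact permutation test, adjusted p = 0.0482, and 0.157 in the libraries outside the baseline). The range of 7SL over the time series, 0.931% to 3.08%, was spanned by the 2 libraries at 0 h themselves.

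**Figure D4:**
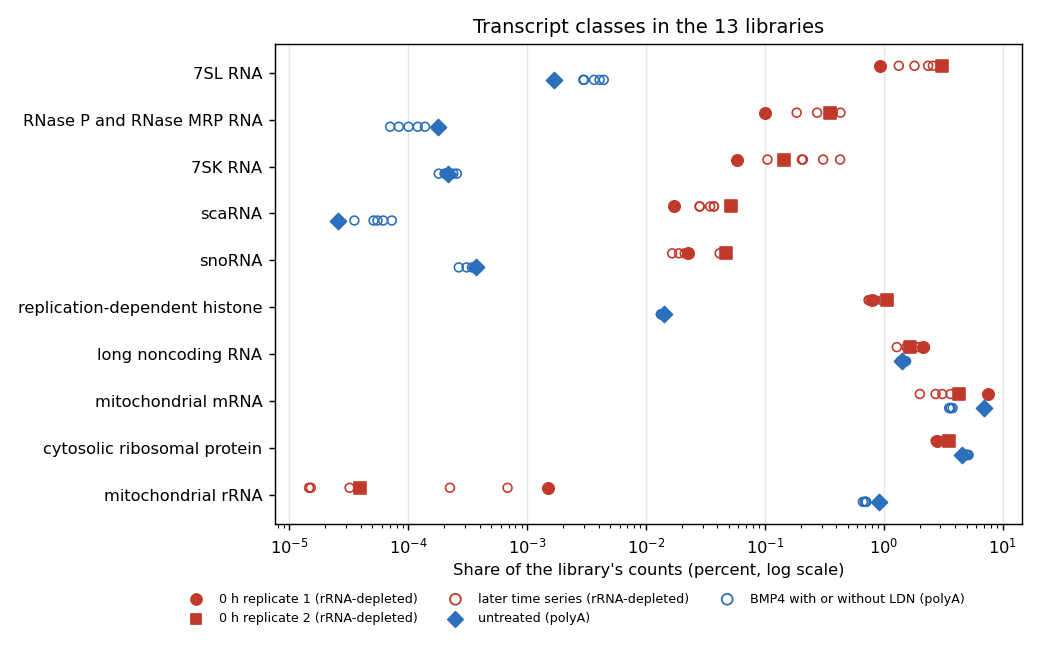
Share of each library's counts taken by 10 transcript classes, in percent on a log scale, with 1 symbol per library. Filled symbols are the 3 baseline libraries, open symbols the other 10, red ribosomal RNA depleted and blue polyA. Red and blue do not overlap for the 5 structured RNA classes, histones, ribosomal proteins and mitochondrial rRNA, and overlap for long noncoding RNA and mitochondrial mRNA.

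Ribosomal RNA itself went the other way. The mitochondrial rRNA genes MT-RNR2 and MT-RNR1 stood at 11.0 and 0.294 CPM and at 4.11 and 0.0981 CPM at 0 h, and at 7753 and 1300 CPM in the untreated library. Together they took 0.905% of the untreated counts and 0.00151% and 3.93e-05% of those at 0 h, a ratio of 1165. Their log2 fold changes were −10.52 and −9.43 by edgeR. Mitochondrial rRNAs are known to carry short adenosine tails. The 2 libraries at 0 h, though both depleted, differed here by more than any other class, and both lay far below the untreated one. Among features that are not protein-coding and reached a mean of 10 CPM, the next largest falls were those of 3 long noncoding RNA features on chromosome 21, ENSG00000280614 (8393419 to 8394341), ENSG00000280800 (8210384 to 8211306) and ENSG00000281181 (8437629 to 8438551), each on the minus strand over a RefSeq copy of the cytosolic ribosomal RNA genes (RNA18SN3, RNA18SN2 and RNA18SN1). Each stood at 11.8 and 2.45 CPM at 0 h and at 476 CPM untreated. Their values were identical in every library, as for copies of 1 sequence, and whether the counting used strand is not given in the sources used here, so reads of ribosomal RNA and of these features cannot be told apart. Over all libraries they were at or below 20.9 CPM in the time series and between 476 and 823 CPM in the dose response.

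Mitochondrial mRNAs, most of which also carry short tails, were not separated by preparation at baseline. Of 13 tested, 0 were higher and 0 lower at baseline by edgeR, where 6.1% and 3.81% of all genes tested were. At an unadjusted p under 0.05 there were 0 higher and 1 lower, MT-CO3, and DESeq2's Wald test called 0. The 22 mitochondrial tRNA genes had no count. The summed share of the 13 mitochondrial mRNAs was 7.60% and 4.29% at 0 h and 6.99% untreated, so the untreated library lay between the libraries at 0 h. MT-CO1, which encodes a catalytic subunit of cytochrome oxidase, stood at 17193 and 8940 CPM against 18372 CPM. MT-ND6, the only mitochondrial mRNA encoded on the light strand, stood at 1322 and 802 against 912 CPM.

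By level per length, the deposited FPKM, the leading genes of the preparations differed. At 0 h the highest mean values were those of RN7SL2 (178550 FPKM) and RN7SL1 (156708 FPKM), followed by MT-ATP8 (104998 FPKM) and RPPH1 (21552 FPKM), and RMRP and RN7SK were also among the first 10. In the untreated library all of the first 10 were mitochondrial, led by MT-ATP8 (68945 FPKM) and MT-ATP6 (18825 FPKM), with MT-RNR2 among them at 6029 FPKM. FPKM of very short genes depends strongly on the effective length used, so the order among them is uncertain.

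Long noncoding RNAs made up 37.8% of all genes called higher at 0 h. Of 1400 features of that class that passed the filter, 350 were higher (25.0%, against 6.1% over all genes tested) and 45 were lower (3.21%, against 3.81%). A feature could pass that filter through the 0 h libraries alone, so the count of higher features depends in part on the filter. The median log2 fold change was 0.58. Among the 1300 annotated as lncRNA with a transcript in GENCODE 44, the share called higher was 29.4% for 374 with 1 exon and 20.8% for 926 with more. It was 27.0% for 664 without and 19.5% for 636 with a polyA signal in the last 50 bases. Such features may overlap other genes, and without strand their reads could not be separated.

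In a list of 15 nuclear and other long noncoding RNAs, 14 were tested, 6 were higher at 0 h (42.9%, against 6.1% of all genes tested) and 1 was lower (7.14%, against 3.81%). MALAT1, whose 3′ end is cut by RNase P and protected by a triple helix in place of a tail, stood at 1200 and 751 CPM at 0 h and at 144 CPM untreated (log2 fold change 2.70 ± 0.40 SE, edgeR adjusted p = 2.27e-09). KCNQ1OT1, an imprinted antisense transcript that silences its neighbours in cis, stood at 123 and 82.1 against 9.29 CPM (3.40 ± 0.39, edgeR adjusted p = 9.25e-16). NEAT1, the scaffold of paraspeckles, was low in these cells, at 15.9 and 10.6 against 3.65 CPM. CASC15, FTX and PVT1 were the others that were higher. Others of the list did not pass the test: NORAD, which binds PUMILIO proteins, stood at 398, 336 and 304 CPM, TUG1 at 334, 197 and 335 CPM and OIP5-AS1 at 198, 150 and 172 CPM. MIR302CHG, the host transcript of the miR-302 family that is typical of pluripotent cells, was lower at 0 h, at 167 and 103 against 273 CPM (−1.08, edgeR adjusted p = 0.0123).

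Of 9 pluripotency-linked noncoding RNAs tested, 0 were higher and 4 were lower at 0 h by edgeR (44.4%, against 3.81% of all genes tested), with 0 and 4 at an unadjusted p under 0.05. The median log2 difference in CPM was −0.48 at baseline, but 0.18 in the pair of the 4 h library and the library with BMP4 and no LDN, where 5 of the 9 were higher after ribosomal RNA depletion. LNCPRESS1 stood at 13.6 and 15.4 CPM at 0 h and at 46.0 CPM untreated (−1.72, edgeR adjusted p = 1.21e-06). LINC00458 stood at 8.51 and 6.34 against 19.8 CPM, LINC01356 at 5.77 and 5.45 against 12.2 CPM and LINC00678 at 41.5 and 44.1 against 76.7 CPM. DESeq2's Wald test called 2 of the 4, with adjusted p-values of 0.0581 for LINC01356 and 0.061 for LINC00678, and the latter also missed the threshold in edgeR with library totals (adjusted p = 0.0638). LINC01356 was higher at 4 h than in the library with BMP4 and no LDN (4.48 and 3.10 CPM), and against all 6 polyA libraries its log2 fold change turned to 0.16, while that of LINC00458 was −0.03. ESRG, the most abundant of the list by CPM, stood at 1371 and 700 CPM at 0 h and at 1447 CPM untreated and did not pass the test. Of those 6 libraries 5 had BMP4, so that comparison mixes treatment and preparation.

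Of 28 pluripotency genes tested, 1 was higher (3.57%, against 6.1% of all genes tested) and 2 were lower at 0 h (7.14%, against 3.81%). Among protein-coding genes outside the histone, ribosomal protein and mitochondrial classes, 3.27% were higher and 3.57% lower. The 5-library model called 5 higher and 4 lower. SALL4, a zinc finger factor of the pluripotency network, stood at 526 and 492 CPM at 0 h and at 235 CPM untreated (log2 fold change 1.06 ± 0.36 SE, edgeR adjusted p = 0.0355). EPCAM, a surface glycoprotein of epithelial and pluripotent cells, stood at 143 and 137 against 309 CPM (−1.21 ± 0.32, edgeR adjusted p = 0.0037). L1TD1, an RNA-binding protein of LINE-1 origin, stood at 716 and 617 against 1356 CPM (−1.08 ± 0.34, edgeR adjusted p = 0.0211). In the 4 h and no LDN pair the same genes stood at 483 against 245 CPM, 97.1 against 233 CPM and 646 against 1478 CPM. TRIM71, a ubiquitin ligase that binds mRNA, was at 1132 and 891 against 473 CPM and missed the threshold (edgeR adjusted p = 0.0503). For the remaining 24 genes the log2 fold changes ran from −1.17 (DPPA2) to 0.91 (UTF1). The median log2 difference in CPM of the list was 0.00, with 0.08 over all genes tested, and −0.05 with TMM factors.

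Of 12 primed-state genes tested, DUSP6, a phosphatase induced by and acting on ERK, was the only one called (8.33% lower, against 3.81% of all genes tested). DUSP6 stood at 32.6 and 36.1 CPM at 0 h and 99.1 CPM untreated (−1.58, edgeR adjusted p = 1.26e-05). Among 21 immediate early genes tested, which respond to handling and growth factors within minutes, ATF3 was lower at 0 h (7.72 and 8.76 against 17.3 CPM, −1.12, edgeR adjusted p = 0.00643, and 0.0505 by DESeq2's Wald test) and 20 were not called. That is 4.76% lower, near the 3.81% over all genes tested. FOS stood at 7.14, 6.80 and 7.82 CPM and EGR1 at 5.37, 4.21 and 6.15 CPM. Of 9 BMP target genes tested, 0 were called by edgeR or DESeq2, and 3 had an unadjusted p under 0.05. Over all genes tested, edgeR called 6.1% higher and 3.81% lower. The 5-library model called 1 higher and 3 lower after ribosomal RNA depletion. ID1, a direct target that encodes an inhibitor of DNA binding, stood at 56.4, 63.9 and 65.6 CPM, against 942 and 1055 CPM in the 4 h and no LDN libraries. GATA3 was at 0.385 CPM or below in the baseline libraries and at 45.6 and 73.2 CPM in those with BMP4. Neither the 18 glycolysis and hypoxia genes nor the 19 cholesterol synthesis genes tested included a call by edgeR or DESeq2, and at these shares over all genes few calls would fall in lists this short. At an unadjusted p under 0.05 there were 1 and 4 such genes, and the 5-library model called 2.0 and 4.0.

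Part of the genes for ribosomal proteins and for the respiratory chain were called lower at 0 h. Cytosolic ribosomal protein genes took 2.79% and 3.55% of counts at 0 h and 4.60% untreated. Of 81 tested, 25 were lower (30.9%, against 3.81% over all genes tested) and 0 were higher, with a median log2 fold change of −0.65 (at an unadjusted p under 0.05, 42 and 2, and by DESeq2's Wald test 25 and 1). RPS27, of the small subunit, stood at 117 and 140 CPM at 0 h and at 445 CPM untreated (−1.85), and RPL39, of the large subunit, at 36.9 and 38.1 against 124 CPM (−1.78). Others in the list lay above the untreated level without passing the test, such as RPS15 at 573 and 683 against 308 CPM. Of 76 nuclear genes of the respiratory chain tested, 29 were lower (38.2%) and 0 were higher, with a median of −0.67 (at an unadjusted p under 0.05, 40 and 1, and by DESeq2's Wald test 25 and 0). ATP5MJ, of ATP synthase, stood at 17.0 and 19.2 against 54.9 CPM (−1.66), while NDUFS8, of complex I, stood at 81.4 and 98.1 against 45.6 CPM and did not pass the test. In the pair at 4 h and 5 h, 79 of the 81 and 70 of the 76 were again lower after ribosomal RNA depletion.

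Other protein-coding genes with large falls at 0 h were HMGN5, a nucleosome-binding protein, at 14.5 and 13.9 against 105 CPM, and the X-linked TCEAL4, TCEAL9 and TCEAL2, of 1 family, with log2 fold changes of −2.33, −2.22 and −2.13. NDUFAB1, the mitochondrial acyl carrier protein, stood at 12.5 and 15.2 against 63.8 CPM (−2.26). CHCHD1, ATP5IF1 and NSA2 had log2 fold changes of −2.25, −2.23 and −2.22. Each of these was lower in the 4 h and no LDN pair too. SERF1A, at 4.37 and 2.20 against 21.5 CPM, was not: it stood at 5.29 CPM at 4 h and at 2.33 CPM with BMP4 and no LDN. It has a near-identical copy, SERF1B, with which reads could be split. The largest fall among protein-coding genes, that of ENSG00000267303 on chromosome 19 (10315471 to 10320678, minus strand), rested on 1 library: it stood at 0 and 0.421 CPM at 0 h and 28.3 CPM untreated, and had no count in the 4 h and no LDN libraries. DESeq2's Wald test gave it an adjusted p of 0.444.

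Higher at 0 h outside the histone list, among genes chosen after their values were seen, were zinc finger and metallothionein genes. Within the level limit of 10 CPM set for naming genes, ZNF460 had the largest log2 fold change, 5.00, at 82.1 and 63.6 against 2.18 CPM. Of 455 zinc finger genes tested, a family in which many members silence retroelements, 56 were higher and 1 was lower, with a median log2 fold change of 0.35. The share higher was 12.3%, against 6.1% of all genes and 3.27% of protein-coding genes outside the histone, ribosomal protein and mitochondrial classes. ZNF483 stood at 401 and 251 against 64.4 CPM. Metallothioneins are short proteins that bind zinc and copper. Of 7 of their genes tested, 6 were higher, where 6.1% of all genes tested were. MT2A stood at 172 and 171 CPM at 0 h and at 18.3 CPM untreated, MT1G at 107 and 114 against 11.9 CPM and MT1E at 76.7 and 81.9 against 9.23 CPM. MT1M, below 10 CPM at 7.96 and 6.49 against 0.128 CPM, had a larger fitted log2 fold change, 5.72, but its untreated level lay under the floor of 0.192 CPM. MT1X, at 112, 82.0 and 57.2 CPM, did not pass the test. The sum over 10 metallothionein genes fell within the time series from 555 CPM at 0 h to 5.20 CPM in its lowest library, and ranged from 65.2 to 108 CPM in the dose response, so their levels also differed between libraries of 1 preparation. Metallothionein genes are near-identical in part, and counts may be split among them.

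Across 13188 protein-coding genes outside the histone list, the difference between the preparations followed transcript length and GC content. Genes were put in 5 bins of like size for each property. In the bin with the shortest transcripts (276 to 1900 bases) the median log2 difference in CPM was −0.18, and 268 genes (10.2%) were called lower at 0 h against 52 (1.97%) higher. In the bin with the longest (5983 bases or more) the median was 0.27, with 174 genes (6.60%) higher and 24 (0.910%) lower. Medians rose from bin to bin, and in the 4 h and no LDN pair they ran from −0.40 to 0.39. The 2 libraries at 0 h differed with length in the opposite direction, since replicate 2 minus replicate 1 gave medians of 0.27 in the shortest and −0.27 in the longest bin. For GC content the median was −0.08 in the lowest and 0.34 in the highest bin, and replicate 2 minus replicate 1 ran the same way, from −0.22 to 0.33. Spearman correlations across genes were 0.32 with length and 0.30 with GC for the difference at baseline and −0.53 and 0.54 for the difference between the libraries at 0 h. A polyA signal in the last 50 bases made little difference: the median was 0.04 for 10795 genes with and 0.09 for 2393 genes without it. Transcripts under 1000 bases outside the ribosomal protein and respiratory chain lists also lay low, with a median of −0.26 over 566 genes, and the 90 in those lists had a median of −0.68.

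**Figure D5:**
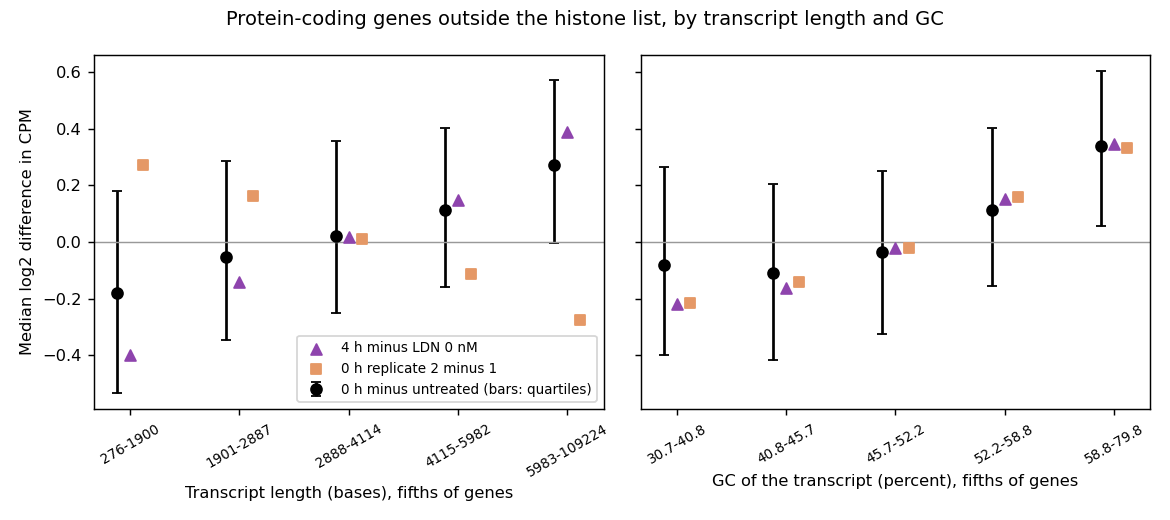
Median log2 difference in CPM of protein-coding genes outside the histone list, by 5 bins of transcript length (left) and GC content (right). Black circles are 0 h minus untreated with quartiles as bars, triangles the 4 h library minus the library with BMP4 and no LDN, and squares replicate 2 minus replicate 1 at 0 h. Circles and triangles rise with length while squares fall, and all 3 are higher in the highest than in the lowest GC bin.

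The number of features detected also differed between the 0 h and the untreated libraries at equal depth. With every library thinned to 15600931 counts, 21872 and 21338 human features had at least 3 counts at 0 h and 18870 when untreated. Most of the gap lay in long noncoding RNAs, with 4656 and 4259 against 2900, and in pseudogenes, with 1778 and 1644 against 1019. Among protein-coding genes outside the named classes the numbers were 15184 and 15186 against 14757. Histone genes detected were 66 and 67 against 50 of 68. Without thinning, 25169 and 26962 features were detected at 0 h.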

How the data were processed

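The members, gene lists and tests were chosen with earlier results of these data known. Per the study's methods and the submitters' processing notes, the authors trimmed reads with Cutadapt, aligned them to GRCh38 with STAR 2.7.8a and deposited RSEM 1.3.3 expected counts, whole numbers here, and FPKM per gene. The Ensembl release and the strand setting are not given in the sources used here. CPM was computed from the total count of each library, 37957385 and 71333471 at 0 h and 15600931 when untreated, and the smaller total limits the precision of low genes. Of 61546 features, 61369 were matched to GENCODE 44 for class, position and sequence, and 5 were not human, with 0.00129% to 0.00301% of counts.

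Genes whose mean over the 2 preparation means was at least 1 CPM were tested with edgeR 4.0.16 (quasi-likelihood, TMM, R 4.3.3) with Benjamini-Hochberg adjustment, 2 libraries against 1, and in a model of 5 libraries with BMP4 as a covariate. Log2 differences in CPM used a pseudocount of 0.1. Shares of classes were compared by exact permutation tests. DESeq2 1.42.0, other scalings, filters, pseudocounts, thinning and left-out libraries were alternatives. The script was tested on simulated data. Intervals are 95% Poisson intervals and, like the floor of 3 counts, cover counting error only. Genes named were the members of the lists, the 10 protein-coding genes and the 5 other features with the largest log2 difference each way among called genes of at least 10 CPM by the same mean, and the 10 highest by FPKM in each preparation. Higher protein-coding genes outside the histone list, and metallothioneins, were named after their values were seen. Labels do not name separate cultures, so p-values measure a spread that may be technical.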

Additional observations from a re-analysis of the deposited data

Results flagged for a closer look

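Several class shares of the baseline libraries stood far from the other libraries of their experiment, by a gap that chance gives in about 1 of 20 groups, over 28 groups checked. In the dose response the untreated library was the lowest for cytosolic ribosomal proteins (4.596% of counts, against 4.98% to 5.18% in the libraries with BMP4) and for other protein-coding genes (85.35%, against 88.2% to 88.5%). It was the highest there for mitochondrial mRNA (6.989%, against 3.55% to 3.80%) and for mitochondrial rRNA (0.9054%, against 0.669% to 0.713%). In the time series, 0 h replicate 1 was the highest for mitochondrial mRNA, at 7.602%, while replicate 2 held 4.29% and the later libraries ranged from 2.01% to 4.23%. The untreated and the 0 h libraries are also those without BMP4, so treatment and library cannot be told apart.

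SERF1A fell at baseline but stood higher in the 4 h library than in the library with BMP4 and no LDN, by a log2 difference in CPM of 1.15. Each side of that pair was 1 library and the difference between the comparisons was not tested.

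The table also lists eGFP, the tag of the SMAD4 fusion, which no comparison used. It stood at 30.03 CPM in 0 h replicate 1, 27.1 CPM in replicate 2 and 18.33 CPM in the untreated library, above the floor of 3 counts in each. SMAD4 stood at 189, 154 and 99.2 CPM in the same libraries.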

How the results depend on the processing

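Over 453 named genes tested, of which 184 were called, DESeq2 size factors kept every direction and call, library totals and no filter each ended 2 calls, a minimum of 10 CPM ended 6 and DESeq2's Wald test ended 14. The counts of genes called at baseline moved more. Higher genes numbered 2039 with no filter, 355 at a minimum of 10 CPM and 554 by DESeq2's Wald test, and lower genes 353 at a minimum of 10 CPM and 360 by DESeq2. Against all 6 polyA libraries, a comparison chosen after seeing the data in which 5 libraries had BMP4, they numbered 3508 and 3396, and LINC01356 (0.16) and ID4 (−3.45) changed direction. Leaving out a library at 0 h gave 1619 to 3134 higher and 1327 to 2817 lower genes over 5 libraries, the largest without replicate 2. In the baseline test it left no residual degree of freedom, hence no test. Over all 13 libraries the difference in share was 0.000158 percentage points for snRNA and −0.731 for mitochondrial rRNA.

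Leaving out a library at 0 h moved list medians of the log2 difference in CPM over these ranges: replacement histones −0.30 to −0.18, snoRNA 5.78 to 6.04, snoRNA hosts −0.094 to 0.022, mitochondrial rRNAs −13.47 to −8.86, mitochondrial mRNAs −0.51 to 0.30, ribosomal proteins −0.81 to −0.51, respiratory chain −0.81 to −0.59, pluripotency genes 0.049 to 0.055, naive genes 0.51 to 0.64, germ layer genes −0.097 to −0.047, immediate early genes −0.13 to 0.12 and BMP targets −0.22 to −0.19. TMM factors turned the medians of pluripotency (−0.054) and primed genes (−0.033) below 0, and gave −0.053 for germ layer genes and −0.18 for BMP targets. At 10 counts after thinning, 16889 features were detected in 0 h replicate 2. For these changes the cause was not tested, beyond fewer genes or libraries entering a fit.

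No paired analysis was possible because the untreated group has 1 library and shares fewer than 2 replicate numbers with 0 h. With 1 polyA library at baseline, its own spread was not measured, and genes of a few counts there have wide ratios.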
